A study of Homo sapiens with 4 samples.

Results

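The regions described here were open in 3 of 4 ATAC-seq peak lists and closed, or too weak to be listed, in untreated wild-type cells. ATAC-seq uses a transposase that cuts and tags accessible DNA, so that a peak marks a stretch of open chromatin. The cells were HK1, an established nasopharyngeal carcinoma line of squamous type. They were either wild type (WT) or carried a knockout of FLI1 made with a guide RNA (sgFLI1), and each kind was left untreated or was exposed to interferon-γ (IFN-γ) for a day. The study's methods give more than 1 guide, and which guide or clone gave these cells is not stated. Each of the groups (WT, WT-IFN-γ, sgFLI1, sgFLI1-IFN-γ) was 1 library, so there are no replicates and no difference was tested. Peaks of the 4 lists that overlapped by at least 1 bp were merged into 93211 regions on chromosomes 1 to 22 and X of GRCh38. A region was a member when it held a peak in the other 3 lists and none in WT, and 2679 regions (2.874%) did so. Presence in the 4 lists chose the members, so their number and their absence from WT are descriptions.

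IFN-γ is a cytokine that signals through JAK kinases to transcription factors of the STAT and interferon regulatory factor (IRF) families, and it is best known for switching on antigen presentation. FLI1 is a transcription factor of the ETS family and binds sites with a GGAA core. AP-1 factors, dimers of FOS and JUN proteins, bind many distal enhancers of epithelial cells. RUNX factors often bind near them, and CTCF binds insulators and loop anchors that are open in most cell types.

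The sequences printed next are 151 bp around the WT-IFN-γ summit of member regions, with searched motifs in capitals, and they show the letters that the motif shares further on count. All come from GRCh38. AP1 was searched as TGANTCA, NRF2 as TGANTCAGC (which contains the AP1 letters), IRF as GAAANNGAA, RUNX as TGTGGTTT, ETS as CCGGAAGT, TEAD as ACATTCC, GRHL as AACCNGTT, CEBP as TTGCNNCAA and KLF/SP as GGGCGG, each on both strands. CTCF, NFKB and p63 were searched as longer consensus sequences. A match is a run of letters and not a measured binding site. The first 5 are among the 12 highest-ranked members, by the lowest −log10 q of their 3 peaks, and show the AP1 letters. They lie in intron 1 of CTXND2, 3064 bp upstream of DOCK1, 11386 bp downstream of the IGFL4 start, in intron 1 of SELPLG and 32940 bp upstream of FAM240C, which holds AP1 at both ends of its window.
CTXND2, chr1:150895729-150895879, plus strand: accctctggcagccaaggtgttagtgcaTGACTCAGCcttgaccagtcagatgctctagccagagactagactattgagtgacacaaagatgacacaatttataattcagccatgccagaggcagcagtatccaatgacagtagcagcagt
DOCK1, chr10:126902270-126902420, plus strand: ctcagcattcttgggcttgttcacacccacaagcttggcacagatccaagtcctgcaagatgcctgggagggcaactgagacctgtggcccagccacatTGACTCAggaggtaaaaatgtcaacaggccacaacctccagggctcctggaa
IGFL4, chr19:46065633-46065783, plus strand: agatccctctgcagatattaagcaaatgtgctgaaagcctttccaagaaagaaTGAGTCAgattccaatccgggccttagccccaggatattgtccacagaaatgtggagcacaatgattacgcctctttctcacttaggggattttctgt
SELPLG, chr12:108628531-108628681, plus strand: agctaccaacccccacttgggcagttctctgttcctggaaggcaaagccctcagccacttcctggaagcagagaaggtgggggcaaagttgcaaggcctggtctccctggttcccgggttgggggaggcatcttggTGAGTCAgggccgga
FAM240C, chr2:241935416-241935566, plus strand: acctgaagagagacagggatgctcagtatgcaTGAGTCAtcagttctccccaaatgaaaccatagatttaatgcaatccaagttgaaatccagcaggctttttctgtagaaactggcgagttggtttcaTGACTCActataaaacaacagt

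The next group shows the IRF letters. RARB is a highly ranked member with a pair of overlapping matches, 9524 bp upstream of its start. NEURL3, KAT2B (intron 1) and SAMD9L (intron 1) are members with a higher pileup in WT-IFN-γ than in either FLI1-KO library. NAP1L1 and ITGA3 hold IRF and AP1 in 1 window, and in NAP1L1 the AP1 letters lie inside p63 letters.
RARB, chr3:24678288-24678438, plus strand: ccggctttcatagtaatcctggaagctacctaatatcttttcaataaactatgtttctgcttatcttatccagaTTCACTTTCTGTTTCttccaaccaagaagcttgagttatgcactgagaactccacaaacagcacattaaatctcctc
NEURL3, chr2:96486173-96486323, plus strand: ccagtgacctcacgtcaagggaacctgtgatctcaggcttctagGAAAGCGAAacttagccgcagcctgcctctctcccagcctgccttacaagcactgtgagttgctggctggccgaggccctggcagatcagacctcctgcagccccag
KAT2B, chr3:20043557-20043707, plus strand: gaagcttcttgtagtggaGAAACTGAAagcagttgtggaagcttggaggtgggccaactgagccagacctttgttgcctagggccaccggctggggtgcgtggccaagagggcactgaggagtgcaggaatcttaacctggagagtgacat
SAMD9L, chr7:93147519-93147669, plus strand: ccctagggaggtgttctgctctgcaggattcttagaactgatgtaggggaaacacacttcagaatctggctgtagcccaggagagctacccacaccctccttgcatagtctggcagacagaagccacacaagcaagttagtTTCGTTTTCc
NAP1L1, chr12:76158810-76158960, plus strand: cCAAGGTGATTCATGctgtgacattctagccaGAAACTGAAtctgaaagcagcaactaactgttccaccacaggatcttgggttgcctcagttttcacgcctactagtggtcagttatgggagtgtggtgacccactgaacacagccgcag
ITGA3, chr17:50047701-50047851, plus strand: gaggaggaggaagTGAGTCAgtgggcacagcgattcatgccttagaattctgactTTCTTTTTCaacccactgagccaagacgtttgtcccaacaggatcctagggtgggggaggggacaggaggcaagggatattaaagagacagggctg

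The last group shows the RUNX letters at IL17RC (inside intron 12 of IL17RE) and, beside an IRF match, 395 bp upstream of TNFSF15, and the CTCF letters, beside a KLF/SP match, 3787 bp upstream of SNAI1.
IL17RC, chr3:9912454-9912604, plus strand: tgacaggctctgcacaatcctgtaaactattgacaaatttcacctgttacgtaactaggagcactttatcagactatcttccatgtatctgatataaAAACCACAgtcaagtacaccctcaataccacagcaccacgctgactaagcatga
TNFSF15, chr9:114806359-114806509, plus strand: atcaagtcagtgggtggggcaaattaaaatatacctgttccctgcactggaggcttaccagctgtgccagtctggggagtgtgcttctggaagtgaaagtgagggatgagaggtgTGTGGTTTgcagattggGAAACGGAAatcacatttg
SNAI1, chr20:49979118-49979268, plus strand: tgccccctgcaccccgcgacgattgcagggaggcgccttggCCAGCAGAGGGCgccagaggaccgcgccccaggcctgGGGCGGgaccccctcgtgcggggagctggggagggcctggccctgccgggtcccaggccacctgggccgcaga

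Members were a small class among the presence patterns. The largest pattern was presence in all 4 lists, with 40876 regions. Of the patterns with a single list missing, 2837 regions lacked only an sgFLI1-IFN-γ peak, 2270 only an sgFLI1 peak and 1723 only a WT-IFN-γ peak. The WT list was the shortest, with 59629 peaks against 67470 in WT-IFN-γ, 63203 in untreated sgFLI1 and 59923 in sgFLI1-IFN-γ. When each list was shortened to the same number of peaks, 2150 regions lacked only WT, and 2259, 2190 and 2400 lacked only WT-IFN-γ, only sgFLI1 and only sgFLI1-IFN-γ. The members therefore stood between the other 1-missing classes as deposited and below all 3 of them at equal list sizes.

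**Figure D1:**
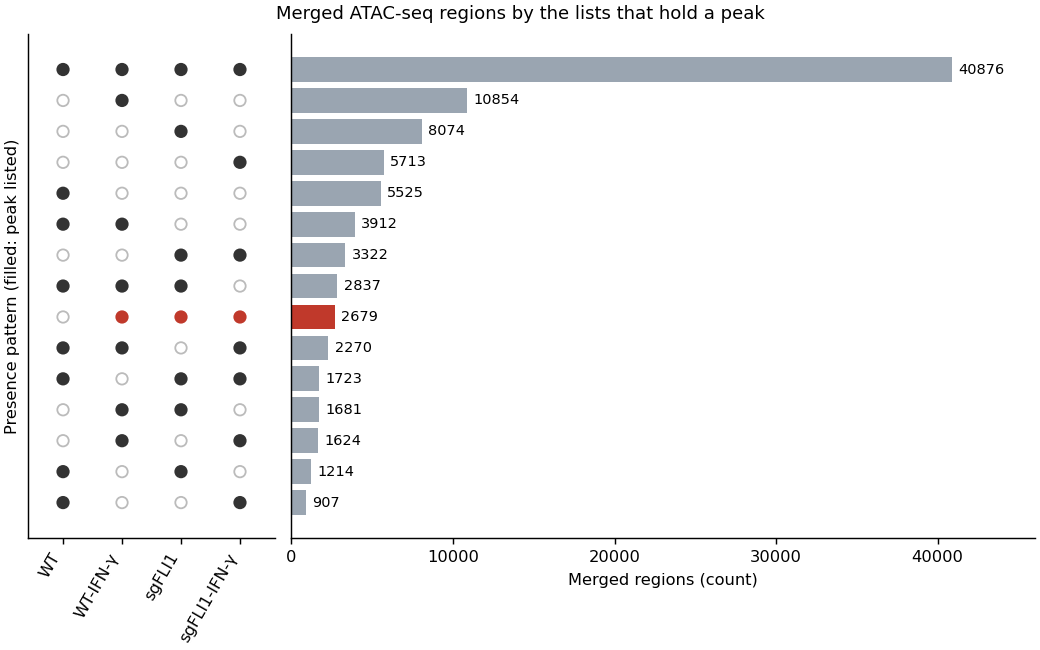
Number of merged regions (x axis, count) for each of the 15 presence patterns over the 4 peak lists, where a filled circle marks a list with a peak. The members (red, 2679 regions) stand far below the 40876 regions in all 4 lists and between the classes that lack only sgFLI1-IFN-γ (2837) and only sgFLI1 (2270).

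Seen from the WT-IFN-γ list, 16838 regions (18.1% of all) had a peak there and none in WT, and the members were 15.91% of them (15.37 to 16.47%, the 95% Wilson interval, which covers counting error only, as do all intervals given here). Seen from sgFLI1, 15756 regions (16.9% of all) had a peak that WT lacked, and the members were 17.0% of them (16.42 to 17.6%). They were 20.09% of the 13338 regions in sgFLI1-IFN-γ and not in WT. These shares follow from the rule.

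Members were narrow and weak. Their median width was 691 bp (267 to 2670 bp) against 1047 bp for regions in all 4 lists, and together they covered 1.97 Mb. Strength was read as the summit pileup, a count of tags at the peak's highest base, which the deposited fold and −log10 p values give together. In members the median pileup was 18 tags in WT-IFN-γ, 18 in untreated sgFLI1 and 17 in sgFLI1-IFN-γ. In regions of all 4 lists it was 50, 42 and 38 tags. Divided by the tag density of the library (8.838, 6.932 and 6.86 tags per kb of genome in the same order), the member medians were 2.04, 2.6 and 2.48. Untreated sgFLI1 also had the highest of these medians in regions of all 4 lists (6.06) and in the class lacking only WT-IFN-γ (2.6). The spread was wide, with pileups of 8 to 140 tags in WT-IFN-γ, 7 to 125 in untreated sgFLI1 and 7 to 112 in sgFLI1-IFN-γ. Above the median −log10 q of their own list lay 406 members (15.2%) in WT-IFN-γ, 545 (20.3%) in untreated sgFLI1 and 438 (16.3%) in sgFLI1-IFN-γ. In all 3 lists at once, 1151 members (43.0%) reached a −log10 q of 5, 225 reached 10 and 8 reached 20. The shares reaching 5 were 41.1%, 47.4% and 46.3% in the classes that lacked only WT-IFN-γ, sgFLI1 or sgFLI1-IFN-γ.

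**Figure D2:**
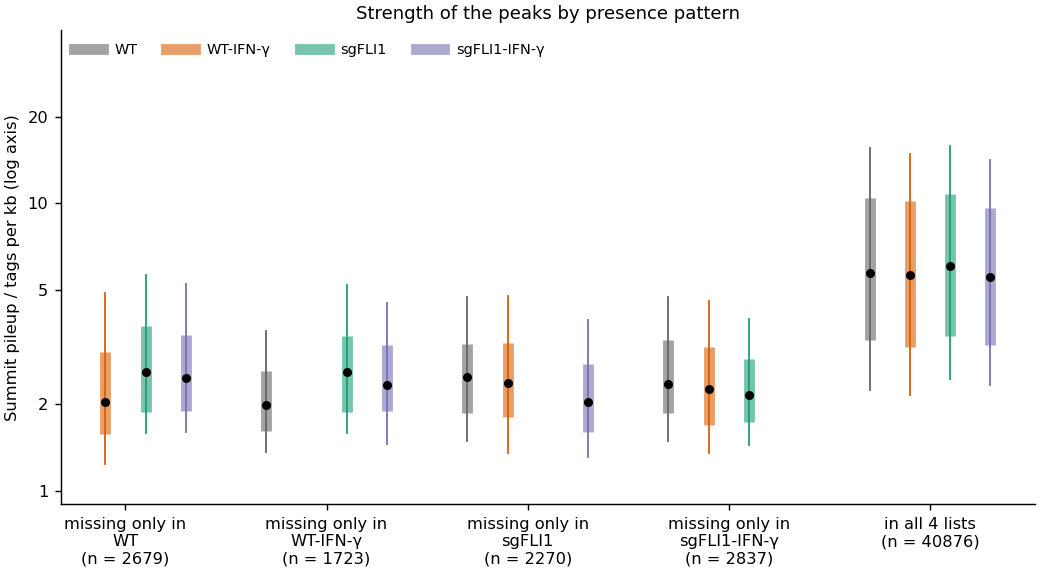
Summit pileup divided by tags per kb (y axis, log scale) by presence pattern and library, with the median (point), the middle 50% (thick bar) and the 10th to 90th percentile (thin line). Member medians of 2.04 to 2.6 lie close to those of the other classes that miss 1 list and under those of regions in all 4 lists, which range from 5.54 to 6.06.

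The depth of the WT library (8.043 tags per kb) was the second highest, and a signal as strong as the weakest of the 3 member peaks would have been listed at that depth at each of the 2679 members. With the pileup of the weakest peak put at the lower end of its Poisson interval instead, 1115 members (41.6%) would still have been listed, and for the other members that lower bound fell under the listing limit of WT. These shares were 39.5%, 36.9% and 33.9% for the classes lacking only WT-IFN-γ, sgFLI1 or sgFLI1-IFN-γ. The nearest WT peak lay at a median of 9136 bp from a member. It was within 500 bp for 58 members (2.16%), and the closest were 3 bp away upstream of DDX3X, 11 bp away in intron 1 of DLGAP4 and 28 bp away in intron 1 of ACSL3. Pileups of 3 numbers are given from here on in the order WT-IFN-γ, untreated sgFLI1, sgFLI1-IFN-γ. The DDX3X region had 21, 24 and 22 tags. The DLGAP4 region had 25, 16 and 12 tags, and the ACSL3 region 19, 12 and 12. At DLGAP4 and ACSL3 WT-IFN-γ had the most tags. Just outside the rule were regions of all 4 lists with the least significant WT peaks, near S1PR5, KAZN and ADGRL4, each with 8 tags in WT. In the other libraries the S1PR5 region had 14, 13 and 11 tags, the KAZN region 13, 20 and 14, and the ADGRL4 region 12, 10 and 9. All of these but the sgFLI1 value near KAZN were under the member medians.

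Members differed in which of the 3 libraries held most signal. Between WT-IFN-γ and sgFLI1 the median log2 ratio of pileup per tag density was -0.35, against -0.11 over the 48073 regions with both peaks. At least 1.5-fold higher in WT-IFN-γ were 255 members (9.52%), near the 8.32% over all regions with both peaks. At least 1.5-fold lower were 894 members (33.4%), against 15.3% of all. In the class lacking only sgFLI1-IFN-γ, 17.3% were higher and 12.4% lower. Between WT-IFN-γ and sgFLI1-IFN-γ the median was -0.24, against 0.02 over all 47449 regions, with 243 members (9.07%, against 10.7%) at least 1.5-fold higher and 700 (26.1%, against 10.5%) at least 1.5-fold lower in WT-IFN-γ. In the class lacking only sgFLI1, 19.6% were higher and 8.06% lower. The classes lacking 1 FLI1-KO list thus leaned to WT-IFN-γ, and the members, which lack WT, to FLI1-KO. The part of the rule in these ratios was not tested. Within FLI1-KO cells the ratio of members was closer to 0. The median log2 ratio of sgFLI1-IFN-γ over sgFLI1 was -0.09, beside -0.14 over all 48600 regions, and its sign changed to 0.037 when libraries were scaled by the median pileup of regions in all 4 lists. There were 144 members (5.38%, against 2.45%) at least 1.5-fold higher and 261 (9.74%, against 6.87%) at least 1.5-fold lower with IFN-γ. The 3 comparisons share libraries, and a weak peak had to pass the same listing limit in each, so these counts describe the members and were not tested.

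Taking both FLI1-KO libraries together, 167 members (6.23%) were at least 1.5-fold higher in WT-IFN-γ than in either of them, against 5.07% of all regions with the 3 peaks. Their median pileups were 40 tags in WT-IFN-γ, 14 in untreated sgFLI1 and 15 in sgFLI1-IFN-γ. At least 1.5-fold lower in WT-IFN-γ than in either were 546 members (20.4%), against 8.23% of all, with medians of 13, 24 and 22 tags. The share higher in WT-IFN-γ was thus near that of all regions, and the share lower in WT-IFN-γ was above it. Most members were in neither group. The rule required that WT had no peak, and its part in the 546 was not tested. On chromosomes 9, 16, 18 and 19 regions of all 4 lists had less signal in sgFLI1 than in WT after centring. These held 26 of the 167 (15.6%) and 41 of the 546 (7.51%), against 10.2% of all members. PALM2AKAP2 and TNFSF15, named further on, lie on chromosome 9, and CIITA and CX3CL1 on chromosome 16. The part of these chromosomes in the ratios was not tested.

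The highest-ranked members were strong in each of the 3 libraries, which the ranking by the lowest −log10 q of their 3 peaks favours. The region in intron 12 of IL17RE, nearest to the start of IL17RC, a subunit of the IL-17 receptor, had 131 tags in WT-IFN-γ, 97 in untreated sgFLI1 and 99 in sgFLI1-IFN-γ, or 14.8, 14.0 and 14.4 per tag density. The region in CTXND2 had 36, 37 and 36 tags, and its nearest WT peak was 18380 bp away. Upstream of DOCK1, which encodes an activator of the GTPase RAC, the pileups were 57, 58 and 58 tags. At these regions the Poisson intervals of the 3 libraries overlapped after division by tag density. The region in intron 1 of SELPLG, the gene of a selectin ligand, had 104, 65 and 73 tags, and that at RARB, a retinoic acid receptor gene, had 45, 40 and 54. Upstream of HMG20B the pileups were 104, 63 and 62 tags. Near IGFL4, a gene of the insulin growth factor-like family, they were 77, 50 and 54. WT-IFN-γ, the deepest library, thus had the most tags at SELPLG, HMG20B and IGFL4, while RARB had the most in sgFLI1-IFN-γ. The FAM240C region was even, with 45, 41 and 39 tags. The region 74150 bp upstream of NAP1L1, a histone chaperone gene, had 46, 30 and 36. A region in exon 11 of CDH15, nearest to the start of SLC22A31, had 71, 60 and 54 tags and a WT peak 276 bp away. Over the 12 highest-ranked members, which include HLA-C and VGF, the log2 ratio of WT-IFN-γ over sgFLI1 ran from -0.39 to 0.40.

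Few members lay at promoters. Within 3 kb of the start (TSS) of a protein-coding gene were 292 members (10.9%, 9.78 to 12.1%), against 33.4% of regions in all 4 lists. The other classes with 1 list missing had like shares of 11.6% to 11.9%. Introns held 37.8% of members, intergenic sequence 48.0% and exons 3.25%, and the median distance to a TSS was 28321 bp. The windows around member summits had a median GC content of 48.8% against 54.2% in all 4 lists, and 4.52% had a CpG ratio (observed over expected) above 0.6 against 31.0%.

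Among the promoter members the highest ranked was at HLA-C, which encodes a class I antigen-presenting molecule. Its summit lay 80 bp upstream of the TSS, with 59 tags (44.9 to 76.1) in WT-IFN-γ, against 35 (24.4 to 48.7) in each FLI1-KO library. HLA genes share sequence with each other, so reads there may be placed uncertainly. The promoter region of VGF, a neuropeptide precursor gene, had 86, 72 and 82 tags. ALKBH2, a DNA repair gene, had 82, 58 and 63 tags. The promoter of WWC1, a Hippo pathway gene, had 53, 47 and 42, that of SMCO4 48, 43 and 35 and that of ATOSB 100, 84 and 79. Each of these promoters was within 1.5-fold between the 3 libraries once depth was taken into account. At POMZP3, which arose from copies of other genes, the pileups were 24, 24 and 31. DENND2B stood apart from these, with 78 tags in WT-IFN-γ and 26 and 41 in the FLI1-KO libraries. In the other direction, KLK4, a kallikrein protease gene, had 27 tags in WT-IFN-γ, 44 in untreated sgFLI1 and 30 in sgFLI1-IFN-γ, and IQCF1 had 22, 36 and 22. At both of these promoters untreated sgFLI1 had the most signal.

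Sequence was not used by the rule, and in several motifs the members differed from other regions by more than the counting intervals. The AP1 letters lay within 100 bp of the summit in 923 members (34.5%, 32.7 to 36.3%). They did so in 22.3% of all regions (22.1 to 22.6%), in 23.5% of regions in all 4 lists (23.1 to 23.9%) and in 23.0%, 20.9% and 24.6% of the classes that lacked only WT-IFN-γ, sgFLI1 or sgFLI1-IFN-γ. The interval of the members thus lay above that of each of these. The full AP-1 sites TGAGTCA and TGACTCA were in 28.4% of members and 19.5% of regions in all 4 lists, and 5.3% of members held more than 1 AP1 match, against 4.09%. Matches lay close to the summit, at a median of 30 bp, against 34 bp in all 4 lists. NRF2 letters, which contain those of AP1, were in 6.68% of members (5.8 to 7.69%) and 4.5% of regions in all 4 lists. The class lacking only WT-IFN-γ had 5.17% (4.22 to 6.31%) and regions in both FLI1-KO lists only 6.5% (5.71 to 7.39%). Both of these intervals overlapped that of the members. The classes lacking only sgFLI1 or sgFLI1-IFN-γ had 3.26% and 4.05%.

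The AP1 share was higher in the stronger members, at 40.2% (37.4 to 43.1%) of those with −log10 q of at least 5 in all 3 lists and 30.1% (27.9 to 32.5%) of the rest. In regions of all 4 lists it went the other way, with 23.1% and 26.5%. Away from promoters it was 36.4% in members and 31.4% in regions of all 4 lists. By the GC content of the window it was 39.0%, 37.8% and 23.1% of members with GC under 45%, of 45 to 55% and of 55% or more, against 39.5%, 31.9% and 10.9% in all 4 lists. In the windows poorest in GC the members therefore did not exceed regions of all 4 lists, and they exceeded the other classes with 1 list missing, at 26.8%, 27.0% and 32.0%, there too.

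RUNX letters were in 101 members (3.77%, 3.11 to 4.56%), against 1.95% of regions in all 4 lists (1.82 to 2.09%), 1.59% of those lacking only sgFLI1 and 1.37% of those lacking only sgFLI1-IFN-γ. The class lacking only WT-IFN-γ had 3.02% (2.31 to 3.94%), and its interval overlapped that of the members. CTCF letters were rarer in members, at 5.26% (4.48 to 6.17%), than in all 4 lists (8.59%) and in the classes lacking only WT-IFN-γ (8.71%), sgFLI1 (15.3%) or sgFLI1-IFN-γ (10.4%). IRF letters were in 9.56% of members (8.5 to 10.7%), against 6.05% in all 4 lists and 4.59% of regions lacking only WT-IFN-γ. That interval overlapped those of the classes lacking only sgFLI1 (8.99%) and only sgFLI1-IFN-γ (7.58%). The ETS letters are 1 exact sequence that holds a CpG, so other sites with the GGAA core that FLI1 binds were not counted. The ETS letters were in 8 members (0.299%, 0.151 to 0.588%). That share overlapped those of the other classes with 1 list missing (0.174% to 0.264%) and was under the 1.95% in regions of all 4 lists, 33.4% of which are at promoters. For p63, TEAD, GRHL and CEBP the members had 5.41%, 4.7%, 1.19% and 1.79%, beside 5.14%, 4.35%, 1.21% and 1.73% of all regions. NFKB letters were in 3.21% against 3.68%, and KLF/SP letters, which are frequent at CpG-rich promoters, in 7.91% against 14.8%.

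**Figure D3:**
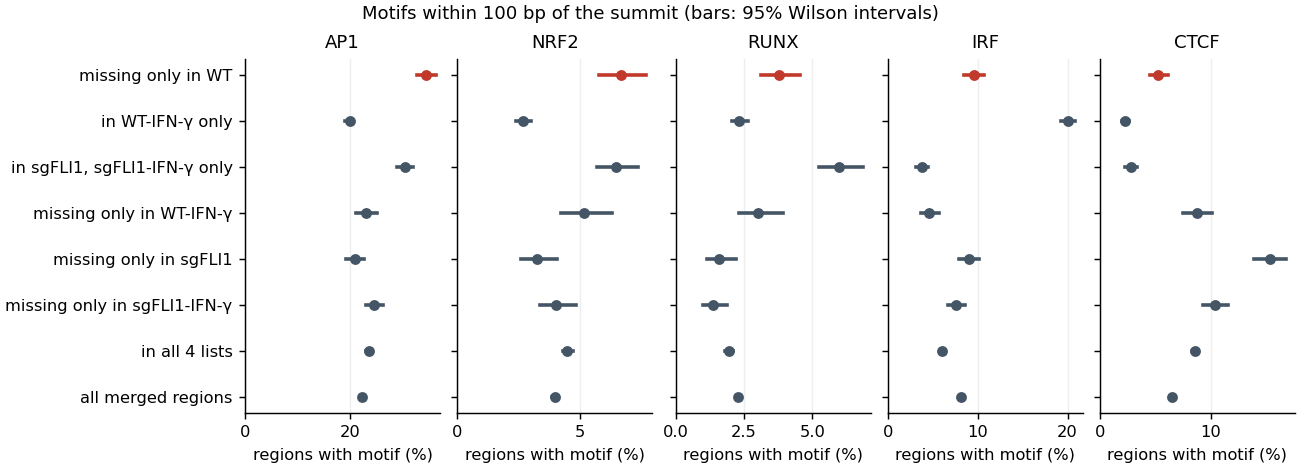
Share of regions with a motif within 100 bp of the summit (x axis, percent, with 95% Wilson intervals) for members (red) and 7 comparison classes. Members have the highest AP1 share (34.5%), a RUNX share (3.77%) between that of regions in both FLI1-KO lists only and that of regions in all 4 lists, and an IRF share (9.56%) under that of regions in WT-IFN-γ only (2170 of 10854).

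The shares of 2 classes of regions listed under fewer conditions are given beside these. Regions in both FLI1-KO lists only (3322 regions) held AP1 in 30.4%, RUNX in 5.99%, IRF in 3.79% and CTCF in 2.77%. Regions in WT-IFN-γ only (10854 regions) held AP1 in 19.9%, RUNX in 2.33%, CTCF in 2.3% and IRF in 2170 regions (19.3 to 20.8%). The member shares lay between theirs for RUNX and IRF, and above both for AP1 and CTCF. The CTCF share did not follow the number of lists alone. It was 6.39% (5.67 to 7.2%) in regions in WT and WT-IFN-γ only and 4.87% (4.33 to 5.47%) in regions in WT only. Both intervals overlapped that of the members. Regions in sgFLI1 only and in sgFLI1-IFN-γ only had lower shares, at 1.92% and 2.52%.

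Among members, the IRF share differed with the library that held most signal. Of the 255 members at least 1.5-fold higher in WT-IFN-γ than in sgFLI1, 71 (27.8%, 22.7 to 33.6%) held IRF letters, against 8.82% of those within 1.5-fold and 5.59% (4.27 to 7.3%) of the 894 at least 1.5-fold lower. In regions of all 4 lists the same classes held IRF in 13.1% (11.9 to 14.3%), 5.49% and 5.39%. RUNX ran the opposite way in members, at 1.96%, 3.01% and 5.59%, and was also highest in the lower class in regions of all 4 lists, at 2.0%, 1.7% and 3.34%. AP1 was high at both ends, at 43.1% of the higher and 39.0% of the lower members against 30.3% of those within 1.5-fold, and CTCF was low at both ends, at 3.14% and 2.8% against 7.06%. AP1 was high at both ends in regions of all 4 lists too, at 30.0% and 34.0% against 21.0%, and CTCF was 8.19% and 5.35% against 9.22% there. Of the 167 members higher in WT-IFN-γ than in either FLI1-KO library, 57 (34.1%, 27.4 to 41.6%) held IRF letters and 77 (46.1%, 38.7 to 53.7%) AP1 letters, and 1 held CTCF letters. Of the 546 lower than in either, 32 (5.86%) held IRF, 210 (38.5%) AP1 and 30 (5.49%) RUNX letters. Members with AP1 and no IRF letters (845) had a median log2 ratio of WT-IFN-γ over sgFLI1 of -0.43, those with IRF and no AP1 (178) 0.02 and those with both (78) 0.23. The motif windows were centred on the WT-IFN-γ summit. With the sgFLI1 summit in its place the members' IRF share fell to 7.39%, and the AP1 share was 35.6%. IRF was then in 5.32% of regions in all 4 lists, 4.35% of those lacking only WT-IFN-γ and 7.58% of those lacking only sgFLI1-IFN-γ. The IRF shares by ratio given here are for the WT-IFN-γ summit only.

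Summits of a member were not always at the same base. The distance between the summits of a pair of libraries had medians of 51 to 58 bp, and the 3 summits lay within 50 bp of each other in 680 members (25.4%) and over more than 200 bp in 687 (25.6%). Between sgFLI1 and sgFLI1-IFN-γ 49.2% of members had summits within 50 bp, against 53.6% of regions in all 4 lists. For WT-IFN-γ and sgFLI1 these shares were 46.2% and 54.2%.

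CIITA (chromosome 16), the gene of the transactivator that switches on the MHC class II genes, had 3 members within 10 kb of a TSS, as had PALM2AKAP2, PLXND1, SELPLG and SMAD3, and no protein-coding gene had more. The CIITA regions lay at 10862110 to 10863084, 10870743 to 10871988 and 10876785 to 10877678, the last with its summit 88 bp upstream of an annotated start. The first had 76 tags in WT-IFN-γ, 23 in untreated sgFLI1 and 27 in sgFLI1-IFN-γ. The second had 136, 30 and 38 tags, and the third 111, 20 and 27. All 3 were higher in WT-IFN-γ, with log2 ratios over sgFLI1 of 1.37, 1.83 and 2.12 and over sgFLI1-IFN-γ of 1.13, 1.47 and 1.67. The first held AP1 and the third IRF letters. On chromosome 16 the FLI1-KO libraries had less signal in general, with a median log2 ratio of sgFLI1 over WT of -0.30 in regions of all 4 lists after centring on the genome, and its part in the CIITA ratios was not tested.

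The other genes with 3 members differed in direction. PALM2AKAP2 (chromosome 9) had 58, 16 and 20 tags at the region 2520 bp from a start, which held IRF and AP1 letters, 24, 18 and 18 at another and 28, 10 and 13 at the last. SMAD3, which carries signals of the TGF-β pathway, had 17, 20 and 14 tags, 32, 43 and 30 tags, and 15, 29 and 31 tags, each lower per tag density in WT-IFN-γ than in sgFLI1. PLXND1, a semaphorin receptor gene, had 39, 50 and 50 tags, 52, 73 and 49, and 78, 66 and 43, again lower per tag density in WT-IFN-γ than in sgFLI1 at each. SELPLG had, beside its intronic region, members with 62, 54 and 52 tags and with 14, 30 and 16.

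Of 19626 protein-coding genes, 812 (4.14%) had a member within 10 kb of a TSS. Of 310 genes on 13 lists of interferon, antigen presentation, epithelial and chromatin genes, 21 had one (6.77%, 4.47 to 10.1%). The lists were written with earlier results of these data known, so this share is a description only. For PSMB10, GRHL3, KAT7 and KAT2A the region was nearer to the start of another gene. Antigen presentation genes with a member were 2 of 13 class II genes, CIITA and HLA-DOB, and 2 of 21 class I and peptide loading genes, HLA-C and PSMB10. HLA-DOB, from the class II list, had 29 tags in WT-IFN-γ, 12 in untreated sgFLI1 and 17 in sgFLI1-IFN-γ at a region 580 bp from its start, with AP1 letters. Near PSMB10, a subunit of the immunoproteasome, the region was in intron 21 of SLC12A4 and had 36, 37 and 36 tags.

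Of 45 antiviral interferon-induced genes, 4 had a member. VAMP5, which encodes a vesicle protein, had 102 tags (83.2 to 124.0) in intron 1 in WT-IFN-γ, against 21 (13.0 to 32.1) in untreated sgFLI1 and 23 (14.6 to 34.5) in sgFLI1-IFN-γ. Upstream of OAS1, which makes the activator of RNase L, the pileups were 34, 15 and 16 tags, and in intron 1 of SAMD9L, an antiviral restriction factor, 28, 9 and 10. ISG20, an exonuclease gene, had 17, 15 and 18 tags. At the first 3 of these genes WT-IFN-γ was the highest library, and at ISG20 sgFLI1-IFN-γ was the highest per tag density. None of 10 guanylate-binding protein and related GTPase genes, 19 IRF and interferon signalling genes, 17 kynurenine pathway and aryl hydrocarbon receptor genes, 24 ETS factor genes or 15 AP-1 factor genes had a member within 10 kb. The upper bounds of these shares ran from 13.8% to 27.8%, above the 4.14% of all genes. Within 50 kb, 4 IRF and interferon signalling, 4 kynurenine and aryl hydrocarbon receptor, 4 ETS and 2 AP-1 genes had a member, and 0 guanylate-binding protein and related genes. Of all protein-coding genes 15.1% had one within 50 kb.

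Of 36 chemokine and immune ligand genes 2 had one. CX3CL1, a membrane-bound chemokine gene on chromosome 16, had a pair. The region 4921 bp upstream had 84 tags (67.0 to 104.0) in WT-IFN-γ, against 10 (4.8 to 18.4) in untreated sgFLI1 and 13 (6.92 to 22.2) in sgFLI1-IFN-γ, with log2 ratios of 2.72 and 2.33. The region in intron 2 had 71, 51 and 25 tags. There WT-IFN-γ and sgFLI1 were alike per tag density (8.03 and 7.36) and sgFLI1-IFN-γ was lower (3.64). The promoter of TNFSF15, a TNF family cytokine gene, had 23, 7 and 9 tags.

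Of 9 lysine acetyltransferase genes 3 had a member within 10 kb (33.3%, 12.1 to 64.6%, against 4.14% of all genes), and 0 had one within 3 kb. In intron 1 of KAT2B the pileup was 122 tags (101.0 to 146.0) in WT-IFN-γ, 35 (24.4 to 48.7) in untreated sgFLI1 and 50 (37.1 to 65.9) in sgFLI1-IFN-γ. The region within 10 kb of KAT2A had 71, 19 and 26 tags, and its summit was 30 bp upstream of DHX58, a regulator of RNA sensing, so that it is a DHX58 promoter region rather than one of KAT2A. The region 8779 bp upstream of KAT7, slightly nearer to the start of FAM117A (8747 bp), had 21, 15 and 17 tags. The KAT2B and DHX58 regions had IRF letters.

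Of the epithelial genes, 2 of 21 squamous transcription factor genes had a member. The region 7402 bp upstream of GRHL3, a factor of epidermal barrier formation, had 33, 24 and 19 tags and was nearer to the start of IFNLR1, a receptor gene of type III interferons. That at RUNX2 had 12, 23 and 17. Of 44 keratin, desmosome and cornified envelope genes 2 had one, the basal keratin gene KRT17 with 19, 10 and 11 tags and the tight junction gene CLDN7 with 9, 17 and 11. Of 36 integrin, matrix and mesenchymal genes 4 did, of which 3 are described. ITGA3, an integrin subunit gene, had 87, 45 and 57 tags and SNAI1, a repressor of epithelial genes, 54, 45 and 45. CCN1, a matricellular protein gene, had 78, 81 and 79. The members named here were split, with GRHL3, KRT17 and ITGA3 highest per tag density in WT-IFN-γ and RUNX2, CLDN7, CCN1 and SNAI1 highest in a FLI1-KO library. At each of them the Poisson intervals of the 3 libraries overlapped after division by tag density.

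**Figure D4:**
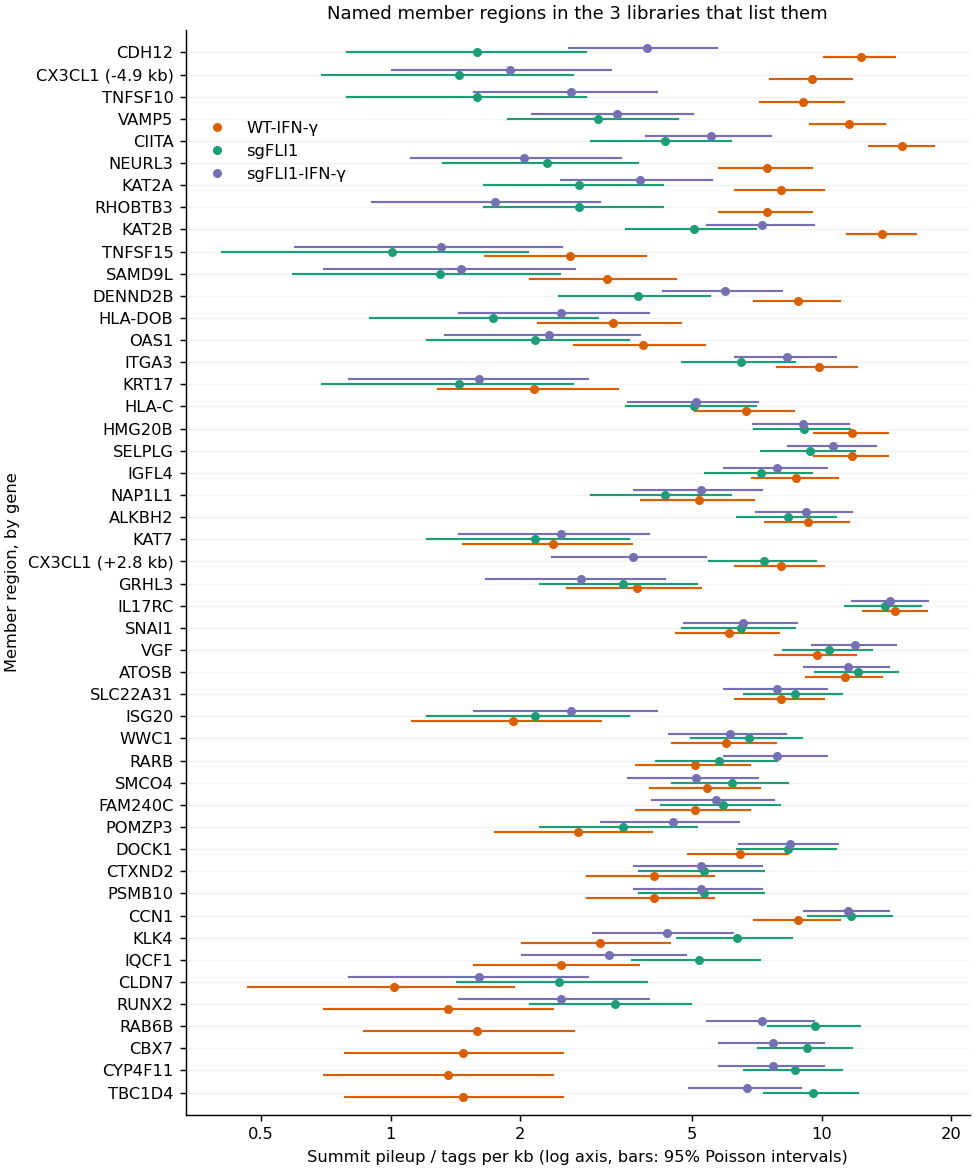
Summit pileup divided by tags per kb (x axis, log scale, bars are 95% Poisson intervals) in the 3 libraries that list them, for members named for their rank, promoter, gene list or ratio, ordered by the ratio of WT-IFN-γ over sgFLI1. CDH12, CX3CL1, TNFSF10, VAMP5 and CIITA head the side of WT-IFN-γ, and TBC1D4, CYP4F11, CBX7 and RAB6B that of the FLI1-KO libraries, where both of those lie apart from WT-IFN-γ.

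The ends of this range were chosen by their ratio and are described only. Among members whose pileups summed to more than 60 tags, the highest in WT-IFN-γ over sgFLI1 was a region 512237 bp downstream of the CDH12 start, with 109 tags against 11 in untreated sgFLI1 and 27 in sgFLI1-IFN-γ. The upstream region of CX3CL1 and a region 62308 bp upstream of TNFSF10, the gene of the death ligand TRAIL, with 80, 11 and 18 tags, came next. Over sgFLI1-IFN-γ, high members also lay in an intron of RHOBTB3, with 66 tags in WT-IFN-γ, 19 in untreated sgFLI1 and 12 in sgFLI1-IFN-γ, and near NEURL3, with 66, 16 and 14. At the other end CYP4F11, a cytochrome P450 gene, had 12 tags (6.2 to 21.0) in WT-IFN-γ at its promoter, 60 (45.8 to 77.2) in untreated sgFLI1 and 53 (39.7 to 69.3) in sgFLI1-IFN-γ, and its nearest WT peak was 64946 bp away. CYP4F genes share sequence with each other, so reads there may be placed uncertainly. A region 115126 bp downstream of the start of TBC1D4, a regulator of glucose transporter traffic, had 13, 66 and 46 tags. It lies on chromosome 13, where regions of all 4 lists had the highest centred log2 ratio of sgFLI1 over WT (0.16). The part of this in the TBC1D4 ratio was not tested. A region 31471 bp upstream of CBX7, a Polycomb gene, had 13, 64 and 53 tags. One in intron 3 of SLCO2A1, nearest to the start of RAB6B, had 14, 67 and 50. In each of these 4 regions the Poisson intervals of both FLI1-KO libraries lay above that of WT-IFN-γ.

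Members were spread over all 23 chromosomes and made up 1.5% to 3.45% of the regions on each. The share was lowest on chromosome 16 (45 members, 1.5%, 1.12 to 2.0%) and chromosome 18 (28 members, 2.01%, 1.4 to 2.89%) and highest on chromosome 22 (3.45%, 2.7 to 4.4%). In regions of all 4 lists, chromosomes 16 and 18 also had the lowest pileups in sgFLI1 over WT, with centred log2 ratios of -0.30 and -0.35, and the part of this difference in the number of members was not tested. On the 17 chromosomes whose ratio was within 0.1 of the genome in both pairs, a set chosen after the data were seen, members were 2.94% of regions, and 34.3% of them held AP1, 9.42% IRF, 3.79% RUNX and 5.49% CTCF letters.

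**Figure D5:**
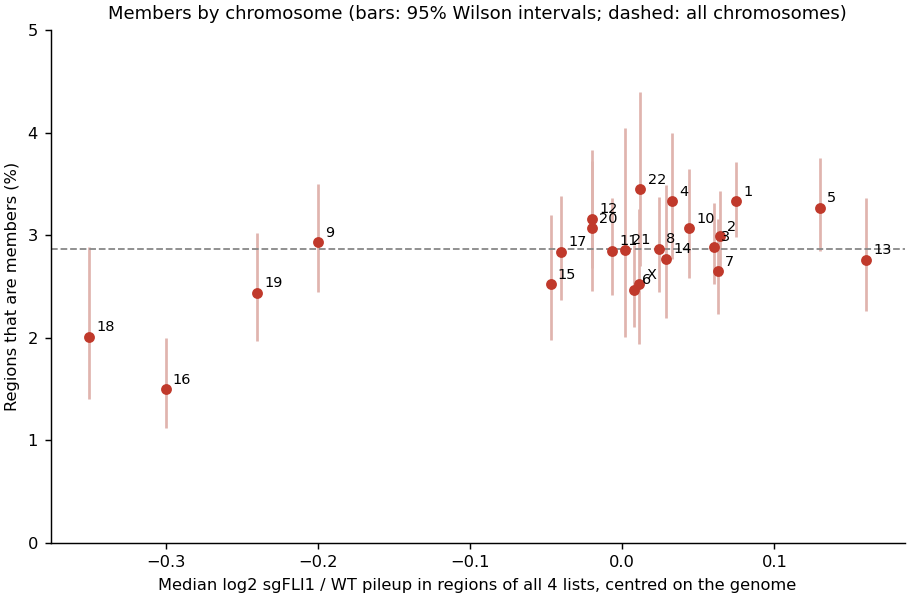
Share of the regions of each chromosome that are members (y axis, percent, bars are 95% Wilson intervals) against the median log2 ratio of sgFLI1 over WT pileup in regions of all 4 lists, centred on the genome (x axis). Chromosomes 16 and 18 lie lowest on both axes, with shares of 1.5% and 2.01%, and the other 21 lie between 2.44% and 3.45%.

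As a check of the cells, promoter peaks were sought at markers of cell types. Of 8 squamous or basal epithelial markers 3 or 4 had one in each library, with KRT17 and SFN in all 4 libraries, while TP63, KRT14 and DSG3 had none in any. Of 4 leukocyte markers CD14 alone had one, in every library. Of 3 fibroblast markers COL1A1 had one in every library and PDGFRB in sgFLI1-IFN-γ only, and of 3 endothelial markers CDH5 had one in WT and in sgFLI1-IFN-γ. A promoter peak is not a measure of expression, and the part of other cells in the members was not tested.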

How the data were processed

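Per the labels and the study's methods, the authors used Trimmomatic 0.3 for trimming and Bowtie2 2.3.4.1 for alignment to GRCh38, removed low-quality alignments and duplicates, and called peaks with MACS2 2.1.2. Whether each list comes from 1 or from pooled replicates, before or after the reproducibility filter the methods name, and whether a transposase shift was applied, is not given in the sources used here. Each peak in the deposited lists has a score, a summit position, a fold enrichment (the ratio of pileup to local background), and significance as −log10 of p and of q. The largest q was 0.0499.

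From fold and −log10 p, a whole-number pileup and its background were recovered for 100.0% of peaks in each list (relative tolerance 0.0002). The lowest background divided by the shortest peak, taken as the tag length (249 to 274 bp), gave the tag density. Depth differed by up to 1.29 times. Peaks overlapping by at least 1 bp were merged, the strongest peak of a library standing for it. Positions were read from GENCODE 44 and GRCh38, with no peak beyond a chromosome end, and motifs from 100 bp to each side of the WT-IFN-γ summit (otherwise of the first library listed).

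Members and lists were chosen with earlier results of these data known. Regions were named by rank, promoter rank, gene list and ratio (sums over 60 tags), the 5 genes with 3 members after their values were seen. No tests were run. The values of 1 list gene are not reported here. Intervals (95%, Wilson for shares, exact Poisson for pileups) cover counting error only. Pileup recovery, merging into presence patterns and the motif search were tested on simulated data, and the other steps were not. Python 3.11.15, numpy 2.4.6, pandas 2.3.3, scipy 1.17.1, matplotlib 3.10.9 and samtools 1.23.1 were used.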

Additional observations from a re-analysis of the deposited data

Results flagged for a closer look

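In 261 of the 2679 members, IFN-γ went with more signal in WT cells and with less in FLI1-KO cells. These regions were unlisted in WT and listed in WT-IFN-γ, while their pileup per tag density was at least 1.5-fold lower in sgFLI1-IFN-γ than in sgFLI1. The rule itself fixed the direction in WT cells, and the difference was not tested. The 261 members were 9.74% of all, beside 6.87% of all regions with both FLI1-KO peaks, and 144 members were at least 1.5-fold higher with IFN-γ in FLI1-KO cells. With libraries scaled by the median pileup of regions in all 4 lists, 144 members were at least 1.5-fold lower and 240 at least 1.5-fold higher. The region in intron 2 of CX3CL1 is an example named after its values were seen, with 71 tags in WT-IFN-γ, 51 in untreated sgFLI1 and 25 in sgFLI1-IFN-γ.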

How the results depend on the processing

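No paired analysis was possible because each group held 1 library and no result came from a test. The number of members was 1342 with −log10 q of at least 10 in every list and 1151 with at least 5 in the 3 lists and no WT peak. It was 1969 with at least 5 in every list, 2150 at equal list sizes and 2659 when merged across gaps of up to 500 bp. The promoter share was 5.45% within 1 kb. The motif shares followed the window. Within 50 and 250 bp they were 23.3% and 45.9% for AP1 (15.4% and 32.9% in all 4 lists), 5.71% and 19.8% for IRF, and 2.05% and 7.09% for RUNX. CTCF was 4.14% within 50 bp and 6.69% in members of −log10 q of at least 5, where AP1 was 40.2%. At the sgFLI1 summit IRF was 7.39%. List genes with a member numbered 8 within 3 kb and 74 within 50 kb. The median log2 ratio of WT-IFN-γ over sgFLI1 was -0.25 when scaled by the median pileup of regions in all 4 lists and -0.27 in members of −log10 q of at least 5. That of WT-IFN-γ over sgFLI1-IFN-γ was -0.27 when so scaled. That of sgFLI1-IFN-γ over sgFLI1 turned to 0.037 when so scaled and was -0.067 in the stronger members. The cause was not tested. At the lower bound of their weakest peak, scaled by background tags, 1115 of the 2679 members would have passed the listing limit of WT.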
